A study of Mus musculus with 6 samples.

Results

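The genes described here are the 10 genes of classical MHC class I antigen presentation that the mouse islet libraries were read for: the heavy chains H2-K1 and H2-D1, the light chain B2m, the peptide transporter subunits Tap1 and Tap2, the loading factor Tapbp, the immunoproteasome subunits Psmb8, Psmb9 and Psmb10, and the transactivator Nlrc5. They were chosen by name, and each was found in the deposited count tables through its Ensembl gene ID in GENCODE mouse release M21 (build GRCm38), so that they make up 10 of 55421 gene IDs. The measurement was RNA sequencing of pancreatic islets of C57BL/6 mice of WT genotype, in 3 libraries labelled vehicle and 3 labelled as stimulated with the ligand insB:9-23. The ligand's name is that of an insulin B chain peptide that autoreactive T cells recognise. Both groups share strain, genotype and tissue. The dose, route and duration of treatment, the age and sex of the mice, and whether mice or isolated islets were exposed, are not stated in the labels. Nothing in the labels says that the libraries came from separate animals, so p-values here rest on the scatter among 6 libraries, part or all of which may be technical.

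MHC class I molecules carry short peptides made inside the cell to the cell surface, where CD8 T cells read them. The proteasome cuts proteins into peptides, the TAP transporter pumps the peptides into the endoplasmic reticulum, and tapasin holds an empty heavy chain with its light chain, beta-2 microglobulin, at the transporter until a peptide fits. Interferons raise the whole set, through factors that include IRF1 and the class I transactivator NLRC5, and they swap the standard catalytic subunits of the proteasome for the immunoproteasome ones. In type 1 diabetes, islet cells with abundant class I are a hallmark of the inflamed islet.

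The sequences just upstream of the class I chains were searched for short motifs linked to class I control. In the H2-K1 window (GRCm38.p6, chr17:34000348-34000597, minus strand, the 250 bases before the gene start in RefSeq) and the B2m window (GRCm38.p6, chr2:122147437-122147685, plus strand, 249 bases) printed here, capitals mark matches to the motifs searched, with the start of the gene to the right.
H2-K1 upstream: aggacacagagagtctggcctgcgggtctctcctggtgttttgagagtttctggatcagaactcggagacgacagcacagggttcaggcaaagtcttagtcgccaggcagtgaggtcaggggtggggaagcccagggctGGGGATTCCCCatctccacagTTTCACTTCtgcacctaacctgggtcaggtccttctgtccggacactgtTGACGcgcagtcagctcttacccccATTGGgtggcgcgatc
B2m upstream: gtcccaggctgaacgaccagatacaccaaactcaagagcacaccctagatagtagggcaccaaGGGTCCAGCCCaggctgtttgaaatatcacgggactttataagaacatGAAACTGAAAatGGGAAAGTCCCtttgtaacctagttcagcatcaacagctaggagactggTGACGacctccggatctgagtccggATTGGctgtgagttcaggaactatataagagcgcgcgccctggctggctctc
The motifs were searched on both strands in windows from 250 bases before to 50 bases after each gene start. They were the interferon-stimulated response element (GAAA, any 2 bases, GAAA), a shorter paired IRF site (GAA, any 2 bases, GAAA), the kappa B site (GGG, any 5 bases, CCC), the X2 box core TGACG and the Y box CCAAT, whose reverse complement is ATTGG. Of the 10 genes, 8 had a window in the RefSeq table, and Tap2 and Nlrc5 did not.

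B2m alone of the 8 held the interferon-stimulated response element, which stood in 3.49% of all 27025 windows. H2-K1 and H2-D1 held the shorter paired IRF site, found in 7.56% of windows. The kappa B letters stood in 5 of the 8 windows (H2-K1, H2-D1, B2m, Tap1 and Psmb9) against 13.8% of all, and the X2 core in the same 5 against 21.0% of all. The Y box stood in those 5 and in Tapbp, against 37.9% of all. The Tap1 and Psmb9 windows overlap on opposite strands, and their kappa B, X2 and Y box matches are the same sites. Each of these sites is thus counted for both genes. The X2 core followed after 20 bases by ATTGG, an arrangement looked for after it was seen in these windows, stood in H2-K1, H2-D1 and B2m and in 26 of the 27025 windows (0.0962%). A match is a run of letters and not a shown binding site, and the absence of one says only that these letters are not in the window.

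In the best local alignment of the heavy chain windows, 206 of 228 aligned positions were identical (90.4%), which leaves the rest of each window uncompared. Their kappa B and IRF stretches, shown because the heavy chains are the members whose groups stood apart, were identical at 29 of 30 bases. They lie at chr17:34000429-34000458 on the minus strand for H2-K1 and at chr17:35262923-35262952 on the plus strand for H2-D1 (GRCm38.p6). The H2-D1 stretch is upstream of the RefSeq start but lies inside the gene as GENCODE annotates it, where it overlaps 1 annotated exon, and the H2-K1 stretch overlaps 0.
H2-K1 stretch: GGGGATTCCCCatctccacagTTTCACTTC
H2-D1 stretch: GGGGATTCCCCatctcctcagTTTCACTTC

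Total counts per library were 52052808 at the lowest and 58880189 at the highest, and the least abundant of the 10 genes had at least 204 counts in each. The libraries held islet RNA mixed with exocrine RNA. Beta cell markers took 9.47% to 13.7% of counts (9 of the 10 markers, since Mafa was at 0 in all 6 libraries) and 13 acinar markers took 13.0% to 21.3%, more than the beta cell markers in 5 of the 6 libraries. A pair of insB:9-23 libraries stood apart. In insB:9-23 replicate 2 the 9 general leukocyte markers took 0.0133% of counts (95% Wilson interval 0.0130% to 0.0136%), against 0.00382% to 0.00417% with vehicle and 0.00434% in replicate 1. B and plasma cell markers took 0.0169% of its counts against 0.00107% to 0.00618% elsewhere, and T and NK cell markers 0.00291% against 0.000207% to 0.000635%. Of its 9120 B and plasma cell marker counts, 5193 were of Ighm. Igkc, of the same list, was at 0 there and also in vehicle replicate 3. It had 853 and 506 counts in vehicle replicates 1 and 2, and 24 and 106 in insB:9-23 replicates 1 and 3. In insB:9-23 replicate 3 the leukocyte markers were at 0.00217% (0.00206% to 0.00230%), the acinar markers at 21.3% against 13.0% to 15.9% elsewhere, and the beta cell markers at their lowest, 9.47%. These intervals cover counting error only. The shares are of total counts, so a larger acinar share leaves less for the other markers. They do not use the scaling factors (TMM) behind the CPM values given below. That factor was 0.8057 in insB:9-23 replicate 3, against 1.004 to 1.083 in the other libraries. No leukocyte marker was at 0 in any library. Up to 3 of the 14 T and NK cell markers, up to 3 of the 12 macrophage and dendritic cell markers and up to 1 of the 9 B and plasma cell markers were. In bulk islets, fewer cells of a type and less RNA per cell cannot be told apart.

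None of the 10 genes differed between the groups in the test across all genes. Their log2 fold changes, insB:9-23 against vehicle, ran from -0.23 for H2-K1 to 0.17 for Psmb10, with adjusted p-values of 0.88 to 0.99 (edgeR's quasi-likelihood test, Benjamini-Hochberg over 17016 genes, threshold 0.05). DESeq2 and limma-voom also called 0 of the 10. The edgeR test called 14 genes in all, which is 0.0823% of those tested. At an unadjusted p below 0.05 there was 1 of the 10, H2-K1, where 5.55% of all genes reached that level. The fold change was below 0 for 8 of the 10, against 48.5% of all genes, and its median was -0.05 against 0.01 over all genes. Without insB:9-23 replicate 3 it was below 0 for 4 (median 0.05), as with the acinar marker level in the model (median 0.03). Without insB:9-23 replicate 2 it was below 0 for 9 (median -0.22), as with scaling by library totals alone (median -0.16). The 95% intervals of the 10 log2 fold changes together ran from -0.78 to 0.67, both ends being those of B2m. The plot of fold changes with their intervals shows all but H2-K1 crossing 0.

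**Figure D1:**
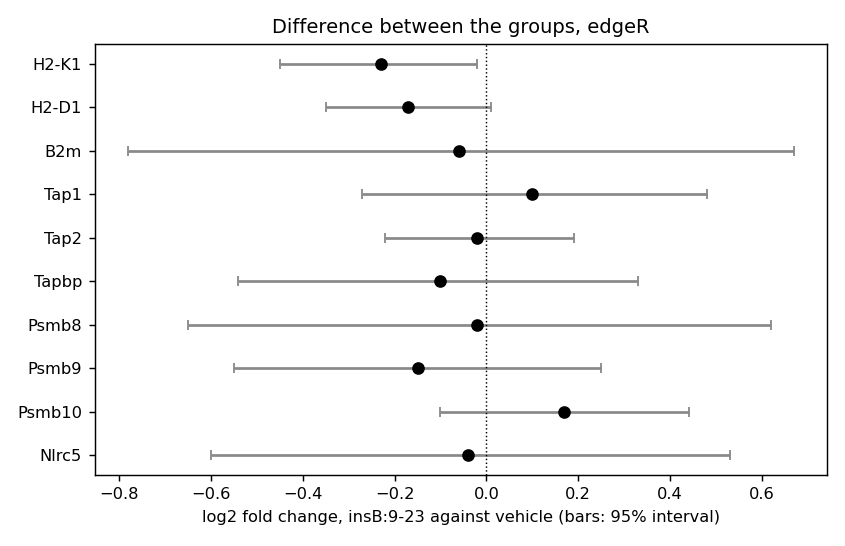
Log2 fold change of each gene, insB:9-23 against vehicle (x axis), from edgeR with its 95% interval (bars), 3 libraries per group. The H2-K1 interval, -0.45 to -0.02, lies below 0 and the other 9 cross it, the widest being that of B2m (-0.78 to 0.67).

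The heavy chains were the members with the least overlap between groups. H2-K1 (ENSMUSG00000061232, GRCm38 chr17:33996017-34000347, minus strand) encodes the K heavy chain. Its level, in CPM (counts scaled to library size, with TMM factors), was 388, 402 and 392 with vehicle and 347, 363 and 295 with insB:9-23. Every insB:9-23 library was below every vehicle library, with replicate 3 the lowest. The means were 394 ± 7.23 and 335 ± 35.4 CPM (SD, n = 3 each), a log2 fold change of -0.23 ± 0.09 (SE; edgeR adjusted p = 0.88). Without insB:9-23 replicate 3 the log2 fold change was -0.15 ± 0.06 and without replicate 2 it was -0.30 ± 0.09.

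H2-D1 (ENSMUSG00000073411, chr17:35262730-35267499, plus strand), the D heavy chain, was at 362, 364 and 334 CPM with vehicle and 317, 333 and 291 CPM with insB:9-23. Here too the groups did not overlap, though vehicle replicate 3 and insB:9-23 replicate 2 were nearly equal. The means were 353 ± 16.7 and 313 ± 21.3 CPM (SD, n = 3 each), a log2 fold change of -0.17 ± 0.07 (SE; edgeR adjusted p = 0.88). Groups that did not overlap, with insB:9-23 lower, were thus seen for 2 of the 10 genes, and for 7.12% of all genes tested. Groups apart with insB:9-23 higher were seen for 0 of the 10, and for 6.40% of all genes.

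H2-K1 and H2-D1 are related genes, and reads from stretches they share with each other or with H2-Q genes could be split or dropped. Of the 50-base words of H2-K1 transcripts, 6.87% occur in another gene, mostly in H2-D1, and 0 of its 100-base words do. Of those of H2-D1, 13.9% and 4.09% occur in another gene, most often H2-Q1. The counts of both were also summed into 1 entry, whose log2 fold change was -0.20 ± 0.08 (SE; edgeR adjusted p = 0.88). Without insB:9-23 replicate 3 this was -0.13 ± 0.06, and with scaling by library totals alone it was -0.35 ± 0.18. Adding the acinar marker level to the model gave -0.11 ± 0.06, and adding the leukocyte marker level, an alternative added after the data were seen, -0.26 ± 0.07. The adjusted p lay between 0.58 and 0.99 over all alternatives.

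B2m (ENSMUSG00000060802, chr2:122147686-122153083, plus strand) encodes the light chain that pairs with class I heavy chains. It was at 195, 179 and 212 CPM with vehicle and at 176, 268 and 118 CPM with insB:9-23. The insB:9-23 libraries held both the highest value, in replicate 2, and the lowest, in replicate 3, and so spanned the vehicle range. The means were 195 ± 16.2 and 188 ± 75.6 CPM (SD, n = 3 each), a log2 fold change of -0.06 ± 0.29 (SE; edgeR adjusted p = 0.99). The sign turned with the library left out, at -0.41 ± 0.19 without insB:9-23 replicate 2 and 0.19 ± 0.20 without replicate 3. Adding the leukocyte marker level to the model, after the data were seen, gave -0.43 ± 0.09 (edgeR adjusted p = 0.47), and adding the acinar one gave 0.29 ± 0.18. What part the cell markers have in these values was not tested further.

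Per exonic base, the ratio of B2m to the sum of H2-K1 and H2-D1 was 0.834, 0.749 and 0.935 with vehicle and 0.850, 1.24 and 0.646 with insB:9-23. The ratio was highest in insB:9-23 replicate 2 and lowest in replicate 3. The ratio of H2-D1 to H2-K1 stayed between 0.970 and 1.12 in all 6.

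**Figure D2:**
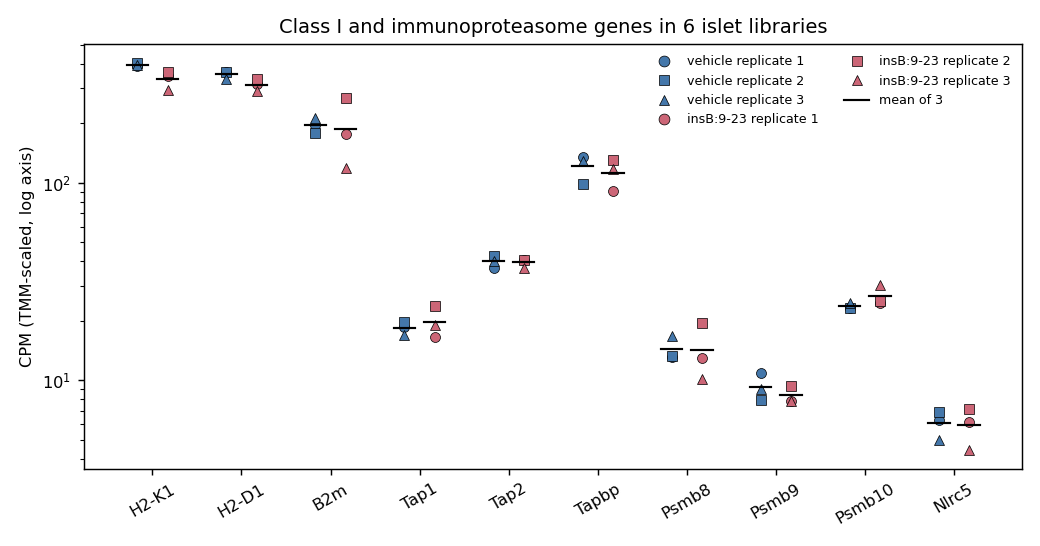
Level of the 10 genes in CPM (y axis, log scale) in each vehicle (blue) and insB:9-23 (red) library, the marker shape giving the replicate number and the line the mean of 3. The groups of H2-K1 and H2-D1 do not overlap, and the insB:9-23 libraries of B2m spread from 118 to 268 CPM around the vehicle values of 179 to 212 CPM.

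Within the class I heavy chain counts, H2-K1 made up a smaller share and the H2-Q and H2-T genes a larger share in all 3 insB:9-23 libraries than in any vehicle library. H2-K1 took 39.6%, 40.5% and 41.2% of the counts of 16 H2 class I chain genes with vehicle and 39.0%, 37.7% and 37.2% with insB:9-23. The 6 H2-Q genes, nonclassical or secreted relatives, took 13.9%, 13.4% and 14.0% with vehicle and 15.5%, 16% and 15.6% with insB:9-23. Neither set of values overlapped between the groups.

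The 5 H2-T genes took 8.04%, 7.84% and 8.23% with vehicle and 8.63%, 10.2% and 9.23% with insB:9-23, again apart. The 3 H2-M genes took 1.58% to 1.64% and 1.31% to 1.52%. H2-D1 took 35.0% to 36.9% and 34.6% to 36.6%, which overlap. These shares were looked at after single values had been seen, they add up to 100% and so are not independent, and some H2-Q genes share long stretches with H2-D1.

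The differences between the group means were -2.45 percentage points for H2-K1, 1.91 for H2-Q, 1.33 for H2-T, -0.21 for H2-M and -0.58 for H2-D1. In a two-sided exact permutation test, p was 0.1 for each of the 4 groups that stood apart, the smallest that 3 against 3 libraries can give, and 0.5 for H2-D1. Adjusted over the 5 shares by Benjamini-Hochberg, these exact values were 0.125 and 0.5. Leaving out each library in turn, the difference for H2-K1 lay between -2.95 and -2.07 points, that for H2-Q between 1.72 and 2.0 points and that for H2-T between 0.89 and 1.70 points. The plot of shares shows these groups apart without regard to how a library was scaled.

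**Figure D3:**
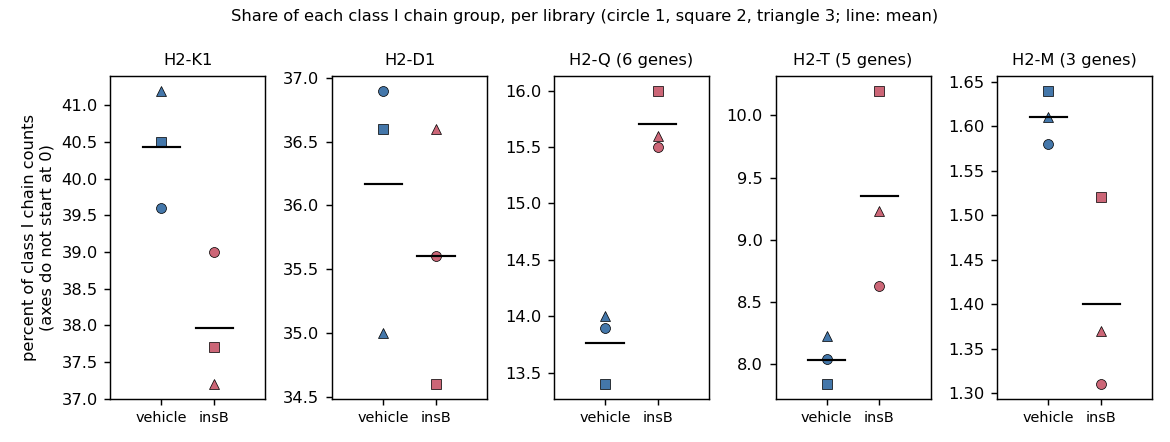
Percent of the counts of 16 class I chain genes (y axes, each with its own range not starting at 0) taken by H2-K1, H2-D1, H2-Q, H2-T and H2-M genes in the 3 vehicle (blue) and 3 insB:9-23 (red) libraries, with the mean as a line. H2-Q stands at 13.4% to 14.0% in vehicle and 15.5% to 16% in insB:9-23 libraries, and only the H2-D1 groups overlap.

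Among the single genes behind those shares, H2-Q4, which encodes a Qb1 chain, was at 43.0, 43.3 and 40.0 CPM with vehicle and 53.2, 52.4 and 44.9 CPM with insB:9-23. Its log2 fold change was 0.25 ± 0.09 (SE; edgeR adjusted p = 0.88). H2-Q2, the H2-Q gene with the most counts, went the other way, at -0.11 ± 0.08 (SE; edgeR adjusted p = 0.89). It was at 68.8, 69.8 and 70.2 CPM with vehicle and 61.9, 70.5 and 61.4 CPM with insB:9-23. A share also rises when the rest of the total falls, and H2-K1 and H2-D1 are the largest parts of it. Their mean levels were 394 and 353 CPM with vehicle and 335 and 313 CPM with insB:9-23. The mean was 12.9 CPM with vehicle and 13.2 CPM with insB:9-23 for H2-Q6, and 9.18 and 10.1 CPM for H2-Q7. The larger H2-Q share is thus not a measure of a higher H2-Q level. H2-T22, a ligand of some gamma delta T cells, was at 25.3 to 27.1 CPM in vehicle and at 27.2, 39.6 and 28.4 CPM in insB:9-23 libraries, so that the gap between the groups was narrow and 1 library stood high. Its log2 fold change was 0.27 ± 0.16, and without insB:9-23 replicate 2 it was 0.07. H2-M3, which presents N-formylated peptides, was at 15.0, 15.5 and 14.7 CPM and at 11.4, 13.6 and 10.7 CPM, a log2 fold change of -0.34 ± 0.12 (SE; edgeR adjusted p = 0.88). H2-T23, the Qa-1 chain read by NKG2A on NK cells, had a log2 fold change of -0.02 ± 0.10. Of the 19 other class I and class I-like chains listed, 16 were tested, 0 were called, 7 had a fold change above 0 and 9 below 0, with a median of -0.02.

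None of the 3 transport and loading genes passed the test. Tap1 (ENSMUSG00000037321, chr17:34187553-34197225, plus strand), a subunit of the transporter, was at 18.7, 19.7 and 16.9 CPM with vehicle and 16.6, 23.7 and 19.1 CPM with insB:9-23. The insB:9-23 values enclosed the vehicle values, with replicate 2 highest. The means were 18.4 ± 1.41 and 19.8 ± 3.59 CPM (SD, n = 3 each), a log2 fold change of 0.10 ± 0.15 (SE; edgeR adjusted p = 0.94).

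Tap2 (ENSMUSG00000024339, chr17:34203527-34216321, plus strand), its partner subunit, was at 37.2, 42.4 and 40.2 CPM with vehicle and 40.6, 40.8 and 37.1 CPM with insB:9-23. The groups overlapped almost fully. The means were 39.9 ± 2.57 and 39.5 ± 2.08 CPM, a log2 fold change of -0.02 ± 0.08 with a 95% interval of -0.22 to 0.19, which with that of H2-D1 is among the narrowest of the 10.

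Tapbp (ENSMUSG00000024308, chr17:33915899-33929292, plus strand), which encodes tapasin, was at 135, 98.5 and 129 CPM with vehicle and 90.7, 130 and 117 CPM with insB:9-23. Both groups held 1 low and 2 higher libraries. The means were 121 ± 19.7 and 113 ± 19.9 CPM (SD, n = 3 each), a log2 fold change of -0.10 ± 0.18 (SE; edgeR adjusted p = 0.95). Exons of the antisense gene Gm19412 cover 24.9% of the exonic length of Tapbp, the same-strand gene Zbtb22 covers 4.11% of it, and antisense or opposite genes cover 14.1% of Tap2 (Gm15821) and 3.87% of Tap1 (Psmb9, 212 bases). No source used here says whether the counting used strand, so reads in those stretches cannot be told apart.

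The genes that trim peptides and help load them lay close to 0 as well. Of 13 listed and tested, 0 were called, 10 had a fold change below 0 and 3 above 0, with a median of -0.05. The smallest unadjusted p-values belonged to Sec61a1, a channel subunit of the endoplasmic reticulum, at a log2 fold change of -0.13 ± 0.05, Canx, the chaperone calnexin, at -0.12 ± 0.06, and Tpp2, a cytosolic peptidase, at -0.12 ± 0.10. The edgeR adjusted p was 0.88 for the first pair and 0.90 for Tpp2. Canx was at 333, 318 and 340 CPM with vehicle and 309, 310 and 293 CPM with insB:9-23. Erap1, the peptide trimmer of the endoplasmic reticulum, was at -0.10 ± 0.11, Calr, calreticulin, at -0.05 ± 0.07, and Pdia3, the ERp57 partner of tapasin, at -0.04 ± 0.07.

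None of the 3 immunoproteasome subunits passed the test, and their fold changes had both signs. Psmb8 (ENSMUSG00000024338, chr17:34197721-34201454, plus strand), the chymotrypsin-like subunit, was at 13.1, 13.2 and 16.8 CPM with vehicle and 13.0, 19.5 and 10.2 CPM with insB:9-23. As for B2m, insB:9-23 replicate 2 was the highest and replicate 3 the lowest of the 6. The means were 14.4 ± 2.07 and 14.2 ± 4.78 CPM (SD, n = 3 each), a log2 fold change of -0.02 ± 0.26 (SE; edgeR adjusted p = 0.99). It was -0.31 ± 0.19 without insB:9-23 replicate 2 and 0.18 ± 0.22 without replicate 3. Exons of the opposite-strand gene Gm20496, at 0 counts in all 6 libraries, cover 14.7% of the exonic length of Psmb8.

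Psmb9 (ENSMUSG00000096727, chr17:34181987-34187764, minus strand), the subunit that takes the caspase-like place, was at 10.9, 7.98 and 9.01 CPM with vehicle and 7.89, 9.37 and 7.86 CPM with insB:9-23. The groups overlapped, with vehicle replicate 1 the highest. The means were 9.29 ± 1.47 and 8.38 ± 0.864 CPM, a log2 fold change of -0.15 ± 0.16 (SE; edgeR adjusted p = 0.92). It was -0.02 ± 0.16 without vehicle replicate 1, -0.03 ± 0.19 with the acinar markers in the model and -0.29 ± 0.23 with scaling by library totals alone. The 212 exonic bases shared with Tap1 on the other strand are 5.79% of the Psmb9 exonic length.

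Psmb10 (ENSMUSG00000031897, chr8:105935735-105938444, minus strand), the trypsin-like subunit, lies outside the MHC region. It was at 23.1, 23.3 and 24.7 CPM with vehicle and 24.5, 25.1 and 30.4 CPM with insB:9-23. Here insB:9-23 replicate 3, the lowest library for most of the other members, was the highest in CPM, and the groups overlapped by a narrow margin. The TMM factor of that library was 0.8057, against 1.004 to 1.083 in the other libraries. In TPM (counts scaled to exonic length and library, without those factors) Psmb10 was lowest there, at 28.8 against 30.8 to 32.9. The means were 23.7 ± 0.882 and 26.7 ± 3.27 CPM (SD, n = 3 each), a log2 fold change of 0.17 ± 0.11 (SE; edgeR adjusted p = 0.88). It was 0.07 ± 0.09 without insB:9-23 replicate 3, 0.03 ± 0.10 with the acinar markers in the model and 0.00 ± 0.12 with scaling by library totals alone.

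Each immunosubunit takes the place of 1 constitutive subunit, so their ratio within a library needs no scaling between libraries. Psmb8 against Psmb5, in counts per exonic base, was 0.0824, 0.0995 and 0.108 with vehicle and 0.0868, 0.187 and 0.0601 with insB:9-23. Psmb9 against Psmb6 was 0.159, 0.123 and 0.109 with vehicle and 0.0992, 0.103 and 0.119 with insB:9-23. Psmb10 against Psmb7 was 0.962, 1.15 and 0.974, and 1.17, 0.981 and 1.35. On this scale the constitutive subunit was the higher one in every library for the first 2 pairs, and the third pair lay around 1.

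The log2 ratio differed between the groups by 0.05 for Psmb8, -0.27 for Psmb9 and 0.18 for Psmb10. The two-sided exact permutation p was 0.9, 0.2 and 0.2 (Benjamini-Hochberg over the 3: 0.9, 0.3 and 0.3), where the smallest possible value is 0.1. Without insB:9-23 replicate 2 the Psmb8 difference was -0.41, and without replicate 3 it was 0.41. The Psmb9 difference was -0.12 without vehicle replicate 1 and -0.07 against the sum of the constitutive beta subunits. The Psmb10 difference was 0.07 without insB:9-23 replicate 3. The level of these ratios depends on the length used, since the exonic length counts retained introns. Per base of coding length, added after the annotation was seen, the ranges over the 6 libraries were 0.216 to 0.674 for Psmb8, 0.211 to 0.338 for Psmb9 and 0.487 to 0.683 for Psmb10. On that scale the constitutive subunit was the higher one in all 3 pairs, and the ranges of the Psmb8 and Psmb10 ratios overlapped.

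**Figure D4:**
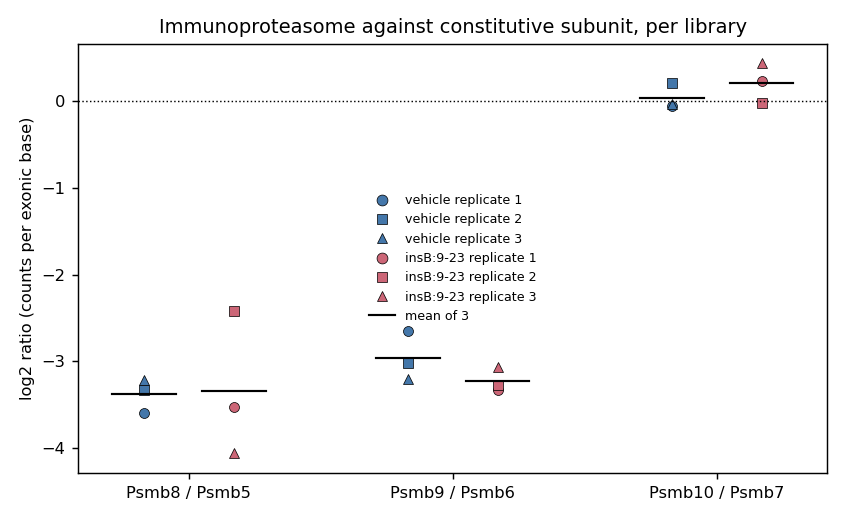
Log2 ratio of each immunoproteasome subunit to the constitutive subunit it replaces, in counts per exonic base (y axis), per library, with the mean of 3 as a line; 0 is an equal level. Psmb8 against Psmb5 spreads from -4.06 to -2.42 with insB:9-23 around vehicle values of -3.60 to -3.21.

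The rest of the proteasome showed no call either. Of the 14 constitutive 20S genes, 7 had a fold change above 0 and 7 below 0, with a median of 0.00, and 0 were called. The partners of the ratios had log2 fold changes of -0.08 ± 0.19 (Psmb5), 0.13 ± 0.15 (Psmb6) and -0.02 ± 0.12 (Psmb7). The smallest unadjusted p-values were those of Psmb2, a beta subunit, at -0.23 ± 0.11, and of the alpha subunits Psma2, at 0.12 ± 0.08, and Psma4, at 0.11 ± 0.09. Of 9 activator and assembly genes, 5 were above 0 and 4 below 0, with a median of 0.02. Psme1 and Psme2, the PA28 cap that interferon gamma raises, were at 0.03 ± 0.12 and 0.10 ± 0.11. The assembly factor Pomp was at 0.12 ± 0.10 and the assembly chaperone Psmg4 at -0.29 ± 0.47.

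Nlrc5 (ENSMUSG00000074151, chr8:94434356-94527272, plus strand), the class I transactivator, was the least abundant member. It was at 6.30, 6.91 and 4.97 CPM with vehicle and 6.13, 7.13 and 4.46 CPM with insB:9-23. Replicate 3 was the lowest of each group, and the groups overlapped. The means were 6.06 ± 0.993 and 5.91 ± 1.35 CPM (SD, n = 3 each), a log2 fold change of -0.04 ± 0.23 (SE; edgeR adjusted p = 0.99).

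Of 23 genes upstream of the set (interferon receptors, the JAK-STAT and IRF genes, NF-kappa B, RFX, CREB and NF-Y), 0 were called, 13 had a fold change above 0 and 10 below 0, with a median of 0.03. Socs3, the feedback inhibitor of cytokine receptors, was at 23.3, 21.0 and 22.5 CPM with vehicle and 33.1, 30.3 and 37.4 CPM with insB:9-23. Its groups were well apart, at a log2 fold change of 0.59 ± 0.10 (SE; edgeR adjusted p = 0.38), and it passed in DESeq2 (adjusted p = 0.011), which called 106 genes in all.

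Irf1, an interferon-induced activator of class I genes, was at 38.9, 25.5 and 35.4 CPM with vehicle and 41.6, 52.2 and 41.1 CPM with insB:9-23. The groups did not overlap, and the log2 fold change was 0.43 ± 0.19 (SE; edgeR adjusted p = 0.88). Jak1, a kinase of the interferon receptors, was at 169 to 179 CPM in vehicle and 158 to 163 CPM in insB:9-23 libraries, a log2 fold change of -0.13 ± 0.05 (edgeR adjusted p = 0.88). Rfx5, a subunit of the factor that binds the X box, was at 0.06 ± 0.19.

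Per length, the members spanned a wide range of levels in islets. In TPM (counts scaled to exonic length and library), the medians over the 6 libraries were 519 for B2m, 289 for H2-D1, 287 for H2-K1, 71.8 for Tapbp, 32.3 for Psmb10, 23.7 for Tap2, 9.29 for Psmb8, 7.55 for Tap1, 5.32 for Psmb9 and 1.67 for Nlrc5. The ranges over libraries of B2m and H2-D1, H2-D1 and H2-K1, Psmb8 and Tap1, and Tap1 and Psmb9 overlapped, and those of the other neighbours did not. B2m was above H2-D1 in all 6 libraries, and H2-D1 was above H2-K1 in 5. Per base of coding length H2-K1 came before H2-D1 and Psmb9 before Tap1, so these orders rest on the length used. The 3 class I chains had a higher mean level than 99.8% of all genes, and Nlrc5 than 78.1%.

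Single libraries stood out across the members. Against the vehicle mean, the median log2 level of the 10 was -0.14 in insB:9-23 replicate 1, 0.10 in replicate 2 and -0.25 in replicate 3, where the median of all genes was 0.02 to 0.03. Of the 6 libraries, insB:9-23 replicate 3 was in CPM the lowest for 7 of the 10 and the highest for Psmb10, and replicate 2 was the highest for 4. In replicate 3 the deviations ran from -0.72 for B2m to 0.36 for Psmb10. The high and low libraries of B2m are those with the most and the least leukocyte marker counts, and replicate 3 also held the most acinar marker counts, as the panels of B2m, H2-K1 and marker shares show. The libraries between them did not keep that order. B2m was at 176 CPM in insB:9-23 replicate 1 (leukocyte markers 0.00434%) and at 212 CPM in vehicle replicate 3 (0.00387%). Other marker lists were also at their lowest in insB:9-23 replicate 3. Endothelial markers took 0.036% of its counts, stromal markers 0.0116%, and macrophage and dendritic cell markers 0.00617%.

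**Figure D5:**
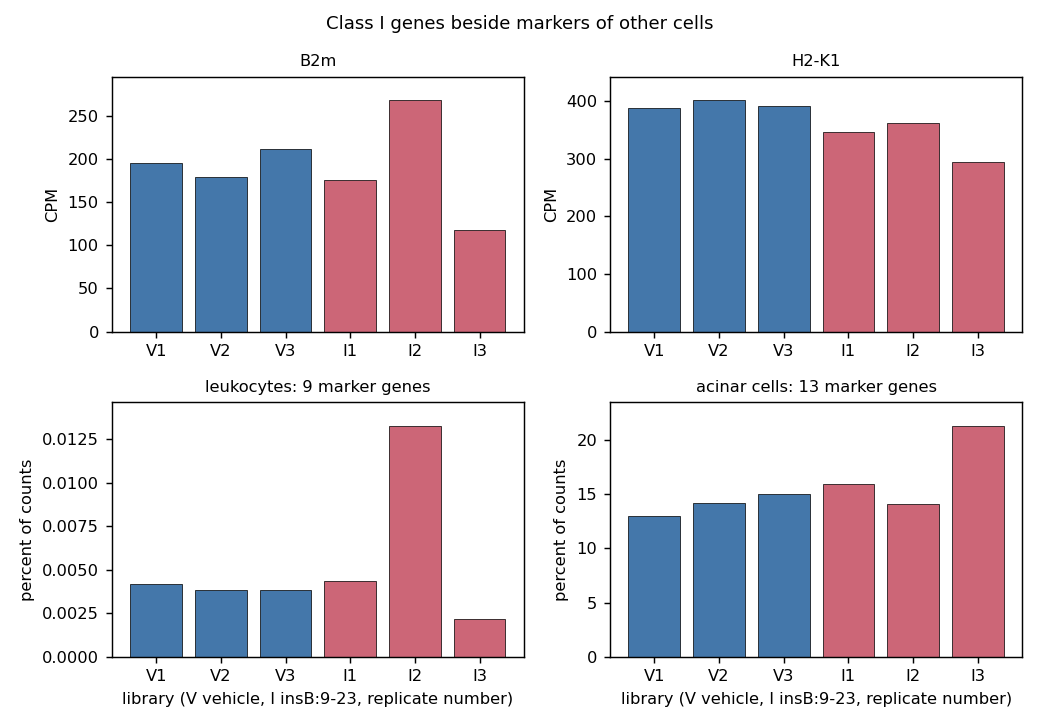
Levels of B2m and H2-K1 in CPM (upper panels) and the percent of counts taken by leukocyte and acinar marker genes (lower panels), for vehicle (V, blue) and insB:9-23 (I, red) replicates 1 to 3. B2m is highest (268 CPM) where leukocyte markers are highest (0.0133%) and lowest (118 CPM) where they are lowest (0.00217%), and H2-K1 is lowest (295 CPM) where acinar markers are highest (21.3%). Between these extremes B2m does not follow the leukocyte markers, with I1 at 176 CPM (0.00434%) and V3 at 212 CPM (0.00387%). The lowest B2m and the lowest H2-K1 value are both those of I3.

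Within the set, B2m and Psmb8 followed each other most closely over the 6 libraries (Pearson's r = 0.957 on log2 CPM), then H2-K1 and H2-D1 (r = 0.934). Psmb10 ran against the heavy chains, at r = -0.923 with H2-K1 and -0.91 with H2-D1, and against the mean of the other 9 members (r = -0.681), while B2m lay closest to the mean of the others (r = 0.909). In TPM, which takes no TMM factor, insB:9-23 replicate 3 was instead the lowest library for Psmb10 (28.8), H2-K1 (162) and H2-D1 (182). Correlations were not computed on that scale. Those given describe 6 libraries that share scaling and cell make-up, and carry no test. The 5 other genes most like the mean of the members, among 10267 with at least 5 CPM, were Ctss (r = 0.990), Hipk2 (0.989), Golm1 (0.989), Dnajc12 (0.984) and Tapbpl (0.983), and 112 genes (1.09%) were above 0.9.

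Ctss, the cathepsin S of antigen-presenting cells, was at 44.7, 39.5 and 44.8 CPM with vehicle and 34.5, 52.8 and 30.3 CPM with insB:9-23. Tapbpl, the tapasin relative TAPBPR, was at 28.8, 27.5 and 26.9 CPM and at 24.9, 35.3 and 20.3 CPM. Both thus shared the high replicate 2 and the low replicate 3. Their log2 fold changes between the groups were -0.13 and -0.05, and those of Hipk2, a kinase, Golm1, a Golgi membrane protein, and Dnajc12, a heat shock cochaperone, were -0.14, -0.06 and -0.07.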

How the data were processed

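Per the file headers, each of the 6 deposited tables gives the raw count of 1 library for every Ensembl gene ID. HISAT, featureCounts 1.5.0-p3, DESeq 1.8.3 and the build GRCm38 appear in the submitters' processing notes with no role or order, and the labels' protocols name TRIzol extraction and a KAPA stranded kit. No source used here names the annotation release or the strand setting. Symbols, coordinates and exon lengths came from GENCODE M21, and sequences from RefSeq (GRCm38.p6).

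The groups were compared with edgeR 4.0.16 under R 4.3.3 (filterByExpr, TMM factors, quasi-likelihood F test with robust dispersion), with Benjamini-Hochberg adjustment over 17016 genes. Standard errors are the log2 fold change over the root of F, and intervals use the t quantile. The procedure was tested on simulated data. CPM use TMM-scaled library sizes, log2 CPM a prior count of 2, TPM and ratios the union of exons. Single values were compared by exact permutation tests (scipy 1.17.1). Where 3 counts would fall depends on the library, at 0.0475 to 0.0655 CPM, and the 10 genes lay far above that.

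Named genes were the 10 members, up to 3 genes per list with the smallest unadjusted p, 13 fixed partners, and the 5 genes most like the members' mean. Marker genes the rule also takes are given as list totals. H2-Q2 and the markers Mafa, Ighm and Igkc are named outside that rule. One of the fixed partners is not reported here. The members and lists were chosen with earlier results of these data known. Alternatives were RLE, upper quartile and total scaling, DESeq2 1.42.0, limma-voom (limma 3.58.1), other filters, an acinar marker covariate, a replicate block and leaving out each library. The leukocyte covariate, coding lengths and class I chain shares were added after the data were seen.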

Additional observations from a re-analysis of the deposited data

How the results depend on the processing

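In all alternatives run, 0 of the 10 members were called, and the smallest adjusted p of a member was 0.47, for B2m with the leukocyte marker covariate, added after the data were seen. The heavy chains H2-K1 and H2-D1 kept a fold change below 0 throughout, from -0.37 to -0.12 and from -0.32 to -0.09. Scaling by library totals alone moved the median of all genes to -0.15 and that of the members to -0.16. It turned the log2 fold change of Tap1 to -0.04, Pomp to -0.02, Psma2 to -0.03, Psma4 to -0.05, Psme1 to -0.11, Psme2 to -0.04 and Rfx5 to -0.11. The acinar marker covariate turned B2m to 0.29, Tap2 to 0.03, Psmb8 to 0.23, Nlrc5 to 0.24, Calr to 0.02, Ctss to 0.11, Dnajc12 to 0.03, Erap1 to 0.01, Golm1 to 0.07, H2-T23 to 0.10, Hipk2 to 0.10, Psmb7 to 0.02, Rfx5 to -0.04 and Tapbpl to 0.22. The leukocyte covariate turned Psmb5 to 0.06 and Psme1 to -0.04. The cause of these turns was not tested, and none of these genes was called in either setting.

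Leaving out each library in turn, the log2 fold change ranged from -0.41 to 0.19 for B2m, -0.05 to 0.22 for Tap1, -0.07 to 0.03 for Tap2, -0.23 to 0.03 for Tapbp, -0.31 to 0.18 for Psmb8 and -0.19 to 0.13 for Nlrc5. Among the other genes it ranged from -0.08 to 0.01 for Calr, -0.41 to 0.02 for Ctss, -0.19 to 0.03 for Golm1, -0.11 to 0.07 for H2-T23, -0.38 to 0.00 for Hipk2, -0.07 to 0.00 for Pdia3, -0.23 to 0.09 for Psmb5, -0.10 to 0.05 for Psmb7, -0.08 to 0.12 for Psme1, -0.60 to 0.07 for Psmg4, -0.08 to 0.23 for Rfx5 and -0.29 to 0.12 for Tapbpl. The Psmb8 to Psmb5 log2 ratio ranged from -0.41 to 0.41.

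Over all genes edgeR called 14, and 16 to 26 with 1 library left out (23 without vehicle replicate 1, 25 without insB:9-23 replicate 1, 26 without insB:9-23 replicate 3). DESeq2 called 106, and the acinar covariate left 9. With the replicate number as a block edgeR called 0 genes, and 605 genes had an unadjusted p below 0.05. The numbers do not pair the libraries, since the deviations of same-numbered libraries correlated at -0.0349, -0.0637 and -0.0249 and no library correlated best with its own number, so the block result says nothing of a weaker effect. With it the heavy chain sum was at -0.21 (edgeR adjusted p = 0.93). Each member had at least 204 counts in every library; what a lower depth would change was not tested.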
